A study of Mus musculus with 8 samples.

Results

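The genes of the DNA methylation machinery themselves, the methyltransferases Dnmt1, Dnmt3a and Dnmt3b, their catalytically inactive relative Dnmt3l, and the hemimethylated-DNA binding proteins Uhrf1 and Uhrf2, were examined for 5-hydroxymethylcytosine (5hmC) before and after induction of a TET enzyme. These 6 genes were chosen by name from the 49997 genes of a GRCm38.p6 annotation table, and all CpG calls between the annotated start and end of each gene were used. They held 587 of the 1849090 calls of the series (0.0317%), on 200 reads. The cells were 1 mouse embryonic stem cell line without functional Tet1, Tet2 and Tet3, carrying the catalytic domain of mouse TET3 in a PiggyBac transposon that doxycycline switches on together with an mCherry reporter, and grown with ascorbate. Untreated cells (0 h) gave 3 libraries named A, B and C. Doxycycline at 1 µM was given for 6 h (2 libraries, A and B) or for 12 h (3 libraries, A to C). The untreated cells carried the same triple knockout and the same transposon. The model is therefore limited to a single complemented line and to an enzyme domain without the rest of the TET3 protein, which was expressed from a transposon. The labels do not say whether the letters stand for separate cultures, so p-values measure the spread between these libraries, which may be technical. With DNA calls alone, the stem cell identity could not be checked against marker transcripts.

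DNMT1 copies methylation onto the new strand after replication and is brought to hemimethylated CpGs by UHRF1, a ubiquitin ligase. UHRF2 is the close relative of UHRF1 and is known as a binder of 5hmC. DNMT3A and DNMT3B methylate CpGs irrespective of the other strand, and DNMT3L stimulates both without catalysis of its own. TET enzymes oxidise the 5-methylcytosine that these proteins place, and CpG-rich promoters are usually free of it while gene bodies of mammalian cells usually carry it. In the assay used, APOBEC-coupled epigenetic sequencing, 5hmC is protected with a sugar and cytosine and 5-methylcytosine are then deaminated. An undeaminated call is thus read as 5hmC plus assay background, and the level is the percentage of calls that are undeaminated. A deaminated call does not tell unmodified cytosine from 5-methylcytosine.

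The libraries held 75023 to 485941 calls each. Library levels were 1.13 ± 0.199% at 0 h (SD, n = 3), 6.42 ± 0.212% at 6 h (n = 2) and 24.1 ± 2.36% at 12 h (n = 3). Because reads with many CpGs had lower levels than sparse ones in the 12 h libraries, each value below is set beside an expected level. This is the level the same library showed on reads with as many CpGs (classes of 1, 2, 3, 4 to 5, 6 to 7, 8 to 10 and 11 or more). The difference between the observed and the expected level, in percentage points, is called the deviation. Intervals are 95% Wilson intervals, and beside a count of 0 stands the level that 3 undeaminated calls would have made. Both cover counting error only, and calls on the same read are not independent, so the true uncertainty is wider.

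Start-site sequences are shown first, because the levels near the start of these genes differed from those further inside. RefSeq promoter windows (250 bases before to 50 after a start, GRCm38.p6) were matched by symbol for all 6 members, with 13 windows in all. The motif CG, which reads the same on both strands and cannot overlap itself, was counted in each. Dnmt3b had 1 annotated window, at chr2:153649199-153649498 on the plus strand, with 30 CpGs. Of all 32851 windows of this length in the table, 11.7% held as many CpGs or more, the median was 7 and 94.6% held at least 1. Uhrf1 had windows with 12 and 33 CpGs, and the CpG-rich one lay at chr17:56304063-56304362 on the plus strand (8.56% of windows held as many). These 2 windows were the members' windows in which CpG calls fell: 14 calls in the Dnmt3b window and 2 in the Uhrf1 window, all at 12 h and all deaminated. The Dnmt3l window at chr10:78042037-78042336 on the plus strand is given for contrast, with 6 CpGs (56.4% of windows held as many) and no call. Each CG is in capitals and the rest in lower case.
Dnmt3b: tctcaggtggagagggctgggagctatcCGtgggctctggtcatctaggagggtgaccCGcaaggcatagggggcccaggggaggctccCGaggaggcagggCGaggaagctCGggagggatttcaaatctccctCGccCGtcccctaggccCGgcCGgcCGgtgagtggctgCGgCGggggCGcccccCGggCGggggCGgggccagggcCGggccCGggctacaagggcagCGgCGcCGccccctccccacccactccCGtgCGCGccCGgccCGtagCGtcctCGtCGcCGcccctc
Uhrf1: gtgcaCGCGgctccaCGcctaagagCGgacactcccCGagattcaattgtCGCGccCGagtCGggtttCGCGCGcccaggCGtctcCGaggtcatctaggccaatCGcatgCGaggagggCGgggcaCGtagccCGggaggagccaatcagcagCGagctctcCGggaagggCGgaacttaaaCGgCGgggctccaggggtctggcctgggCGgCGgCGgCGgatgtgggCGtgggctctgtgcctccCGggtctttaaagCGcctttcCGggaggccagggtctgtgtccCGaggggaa
Dnmt3l: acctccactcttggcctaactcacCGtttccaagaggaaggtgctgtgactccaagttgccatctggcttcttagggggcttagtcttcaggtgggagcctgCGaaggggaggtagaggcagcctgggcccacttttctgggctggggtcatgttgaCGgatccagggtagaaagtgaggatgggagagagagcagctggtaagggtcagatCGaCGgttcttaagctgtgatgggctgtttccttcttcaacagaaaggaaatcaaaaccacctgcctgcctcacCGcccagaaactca

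The 3 windows of Dnmt1 held 33, 12 and 2 CpGs, those of Dnmt3a 46, 47 and 18, that of Uhrf2 28, and the 2 further ones of Dnmt3l 4 and 3. None of these windows was covered by a call, so the annotated starts of Dnmt1, Dnmt3a, Dnmt3l and Uhrf2 themselves were not measured within them.

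Over the 6 genes pooled, no call was undeaminated before induction, and the level was 5.81% at 6 h and 21.0% at 12 h. The untreated libraries gave 0 of 40 calls in A, 0 of 11 in B and 0 of 24 in C. Their sum of 0 of 75 allows a level of up to 4%, and 1.06% was expected from the libraries. After 6 h the counts were 0 of 19 in A and 9 of 136 in B (6.62%, interval 3.52 to 12.1%), against expected levels of 7.32% and 6.14%. After 12 h they were 29 of 162 in A (17.9%, 12.8 to 24.5%), 35 of 157 in B (22.3%, 16.5 to 29.4%) and 11 of 38 in C (28.9%, 17.0 to 44.8%), against expected levels of 19.4%, 19.0% and 28.5%. Every 12 h library thus lay above every earlier library, and the expected level lay inside the interval of each 12 h library. At 12 h the mean was 23.0 ± 5.56% (SD, n = 3) and the mean deviation 0.74 ± 2.40 percentage points. Summed over libraries, 75 of 357 calls were undeaminated at 12 h (21.0%, 17.1 to 25.5%), where 72.1 calls (20.2%) were expected. Dnmt1, Uhrf1 and its relative Uhrf2 together gave 25 of 141 calls (17.7%, expected 20.7%). The 3 genes linked to new methylation (Dnmt3a, Dnmt3b, Dnmt3l) gave 50 of 216 (23.1%, expected 19.9%). This difference between the 2 groups of genes was not tested.

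**Figure D1:**
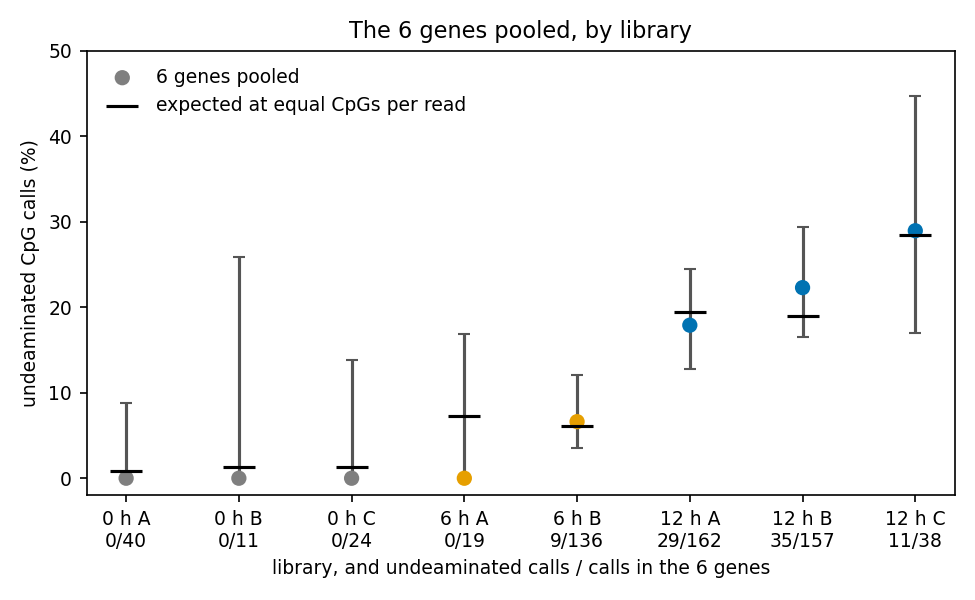
Percentage of undeaminated CpG calls (y axis) over the 6 genes pooled in each of the 8 libraries (x axis), with 95% Wilson intervals, beside the level expected from the same library at equal CpGs per read. The untreated libraries sit at 0, 6 h B at 6.62% and the 12 h libraries between 17.9 and 28.9%, with the expected level inside each 12 h interval.

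Dnmt1 lies on the minus strand at chr9:20907206-20959888 (GRCm38.p6) and spans 52683 bp, with annotated starts at 20959888, 20952979 and 20952623. The span also contains the microRNA gene Mir7081. Its calls were all deaminated at 0 h, 0 of 11 in A and 0 of 4 in B with none in C, which allows up to 20%. At 6 h the counts were 0 of 7 in A and 2 of 33 in B. At 12 h they were 6 of 38 in A (15.8%), 9 of 29 in B (31.0%) and 2 of 7 in C (28.6%), so each 12 h library lay above all earlier ones. The 12 h sum was 17 of 74 (23.0%, 14.9 to 33.7%), beside 24.1% expected. In the fit with limma over 3732 genes, the gain from 0 h to 12 h was 22.8 ± 4.46 percentage points (SE; adjusted p = 0.00319). With the same test, 86.1% of all genes fitted were called higher and 0 lower, so this call is shared with most genes. The median gain of all genes was 23.7 points, and 44.1% of genes had a lower gain than Dnmt1. From 6 h to 12 h Dnmt1 rose by 17.8 ± 5.04 points (adjusted p = 0.0257), a call that 53.1% of genes shared while 0.0804% were called lower. This second call was lost without 6 h A (16.8 points, adjusted p = 0.0517), which leaves 1 library at 6 h that is assumed to vary like the other times. It was also lost without 12 h B (12.5 points, adjusted p = 0.0563) and in the fit blocked by replicate letter (19.0 points, adjusted p = 0.0588). From 0 h to 6 h the estimate was 5.04 ± 3.73 points (adjusted p = 0.525), in a contrast where 0.107% of genes were called.

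Uhrf1 lies on the plus strand at chr17:56303337-56323486 and spans 20150 bp, with starts at 56303337 and 56304313. Before induction it had 0 of 2 undeaminated calls in A and 0 of 6 in C, with none in B. At 6 h it had 0 of 9 in A and 1 of 10 in B. At 12 h it had 2 of 25 in A, 1 of 2 in B and 1 of 9 in C, together 4 of 36 (11.1%, 4.41 to 25.3%), beside 18.2% expected. The 12 h value in A (8%) lay below that of 6 h B, so the 2 times overlapped at these depths. Uhrf2, on the plus strand at chr19:30030430-30093726 (63297 bp, start at 30030513), had 0 of 3, 0 of 4 and 0 of 1 undeaminated calls at 0 h and no call at 6 h. Its 12 h counts were 1 of 5 in A, 3 of 25 in B and 0 of 1 in C, together 4 of 31 (12.9%, 5.13 to 28.8%; expected 15.6%). For each of these 2 genes the 0 of 8 calls at 0 h allow a level of up to 37.5%, which overlaps the 12 h interval. Their rise was therefore not measurable gene by gene at this depth, and neither gene had enough calls to enter the fit.

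Dnmt3a, the longest of the members, lies on the plus strand at chr12:3801559-3914443 and spans 112885 bp, with starts at 3806980, 3807160 and 3891744. The long non-coding genes Dnmt3aos and Gm31623 overlap it. At 0 h it had 0 of 16, 0 of 1 and 0 of 8 undeaminated calls in A, B and C, which allows up to 12%. At 6 h it had 0 of 2 in A and 3 of 57 in B. At 12 h it had 13 of 31 in A (41.9%), 12 of 56 in B (21.4%) and 5 of 7 in C (71.4%), all above the earlier libraries. The 12 h sum of 30 of 94 (31.9%, 23.4 to 41.9%) was the highest level among the 6 genes, and the 22.5% expected lay just under its interval. The gain over 0 h was 31.8 ± 6.15 points (adjusted p = 0.00217), in a test that called 86.1% of all genes. It was larger than that of 86.0% of the genes fitted. Its gain from 6 h to 12 h was 26.7 ± 6.91 points (adjusted p = 0.0161), where 53.1% of all genes were called. This call was lost without 12 h A (21.4 points, adjusted p = 0.0630) and in a quasi-binomial fit (difference of the sums 26.8 points, adjusted p = 0.119). The gain was 41.7 points without 12 h B. From 0 h to 6 h the estimate was 5.09 ± 4.80 points (adjusted p = 0.626).

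**Figure D2:**
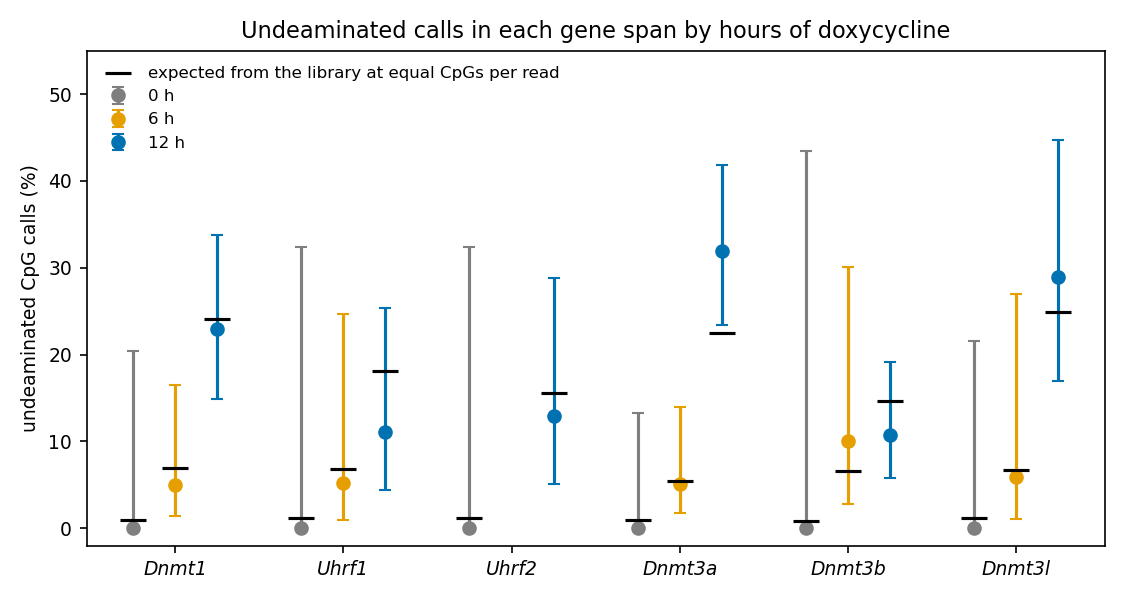
Percentage of undeaminated CpG calls (y axis) of each of the 6 genes (x axis), summed over the libraries of 0 h, 6 h and 12 h (colours), with 95% Wilson intervals and black bars for the level expected at equal CpGs per read. At 12 h the sums run from 10.7% in Dnmt3b to 31.9% in Dnmt3a, and all 0 h sums are 0 with wide intervals.

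Dnmt3b lies on the plus strand at chr2:153649411-153687730 and spans 38320 bp, with 1 start at 153649449. It had 0 of 5 undeaminated calls at 0 h, all in A, which allows up to 60%. At 6 h it had 0 of 1 in A and 2 of 19 in B. At 12 h the counts were 3 of 43 in A (6.98%), 4 of 31 in B (12.9%) and 2 of 10 in C (20.0%). Their sum of 9 of 84 (10.7%, 5.74 to 19.1%) was the lowest level of the members and stood beside the lowest expected level (14.6%). The 12 h value in A lay below the 10.5% of 6 h B. Neither Dnmt3b nor Dnmt3l had calls in enough libraries of each time to enter the fit. Dnmt3l lies on the plus strand at chr10:78042287-78063622 (21336 bp, starts at 78042287, 78049842 and 78055335) and overlaps Aire. It had 0 of 3, 0 of 2 and 0 of 9 at 0 h (up to 21.4% allowed) and 1 of 17 at 6 h, all in B. At 12 h it had 4 of 20 in A (20.0%), 6 of 14 in B (42.9%) and 1 of 4 in C (25%), each above 6 h B, and together 11 of 38 (28.9%, 17.0 to 44.8%; expected 24.9%).

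By 12 h level the order was Dnmt3a, Dnmt3l, Dnmt1, Uhrf2, Uhrf1 and Dnmt3b. The intervals of neighbours in this order overlapped in every case. Those of the first and the last, Dnmt3a and Dnmt3b, did not, but 44 of the 84 Dnmt3b calls lay on 2 deaminated reads near its start. Without the calls within 1 kb of the gene ends, the intervals of Dnmt3a (23.6 to 42.3%) and Dnmt3b (12.3 to 37.5%) overlapped. The order of the expected levels was another, with Dnmt3l and Dnmt1 highest (24.9% and 24.1%) and Dnmt3b and Uhrf2 lowest (14.6% and 15.6%). These levels are described and were not tested between genes.

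Set against the libraries at equal CpGs per read, neither fitted member was called, with wide errors for both. The deviation of Dnmt1 moved by -0.337 ± 4.21 points from 0 h to 12 h (adjusted p = 0.986). Its direction turned without 12 h A (6.21 points, adjusted p = 0.499). That of Dnmt3a moved by 10.3 ± 5.22 points (unadjusted p = 0.0854, adjusted p = 0.488), to 22.5 points without 12 h B (adjusted p = 0.108) and to 6.13 without 12 h A (adjusted p = 0.695). Among the 3732 genes, 0.107% (4 genes) were called higher and 0.241% (9 genes) lower in this contrast, and 467 had an unadjusted p under 0.05. The median over genes was 0.978 points, with a range of -10.6 to 13.9 between the 5th and 95th percentiles, and 89.2% of genes had a lower value than Dnmt3a and 41.9% than Dnmt1. From 6 h to 12 h the deviations moved by 0.604 ± 4.76 points in Dnmt1 (adjusted p = 0.988) and 9.66 ± 5.86 in Dnmt3a (adjusted p = 0.577), where 0 genes were called higher and 0.0268% lower. On simulated data for this contrast of 3732 genes, the test called 17.5% of genes moved by 10 points in either direction. It called 60% of those moved up by 20 points, 77.5% of those moved down by 20 and 95% of those moved up by 40. The same test also called 14 of the 3532 genes that were not moved there (0.396%). The adjustment of p depends on how many genes move, so this count cannot be set against the calls in the libraries. A deviation of about the size seen in Dnmt3a was thus missed in most genes of that data. How the dependence of calls on the same read changes these percentages was not tested.

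**Figure D3:**
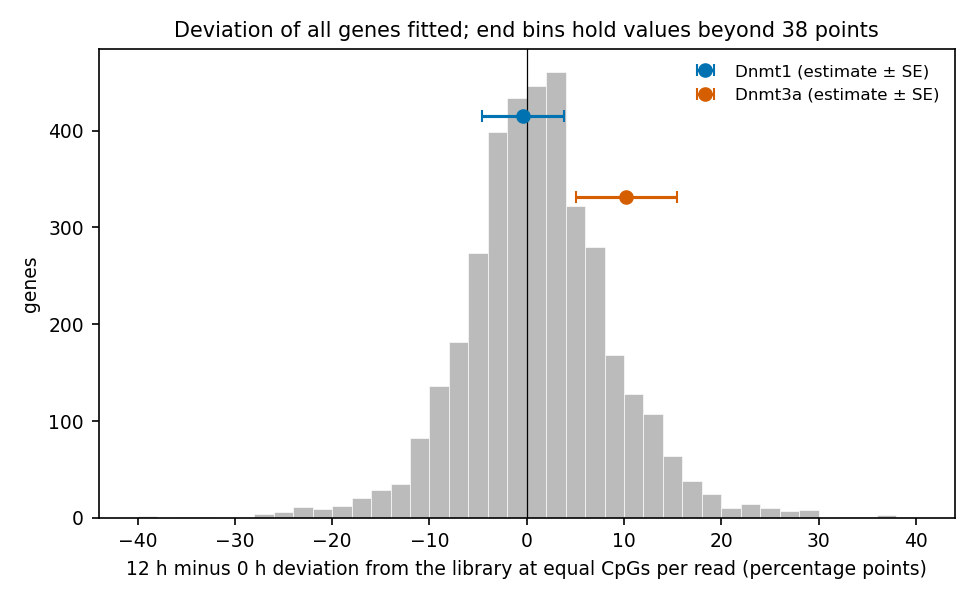
Number of genes (y axis) by the change of the deviation from 0 h to 12 h in percentage points (x axis) for the 3732 genes fitted, with points and SE bars for Dnmt1 (-0.337 ± 4.21) and Dnmt3a (10.3 ± 5.22), whose height has no meaning. Both estimates lie between the 5th and 95th percentiles of all genes, -10.6 and 13.9.

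The ends of the genes and their bodies gave different levels at 12 h. Within 1 kb of either end of the span, inside or outside it, 2 of 93 calls on 9 reads were undeaminated (2.15%, 0.59 to 7.51%), where 6.93 calls (7.46%) were expected. By library these were 0 of 52 in A, 1 of 39 in B and 1 of 2 in C. In the bodies, the spans without those ends, the counts were 29 of 125 in A (23.2%), 34 of 118 in B (28.8%) and 10 of 36 in C (27.8%). The ends of 12 h C thus lay above its bodies, on 2 calls, and the mean of the ends over libraries was 17.5 ± 28.2% (SD, n = 3) with a mean deviation of 3.22 ± 15.6 points, opposite in sign to the deviation of the sum. The mean of the bodies was 26.6 ± 2.99% (SD, n = 3), and their sum 73 of 279 (26.2%, 21.4 to 31.6%; expected 23.9%). The same parts of all protein-coding genes had 12.1 ± 1.60% at the ends and 26.6 ± 2.40% in the bodies. Their deviations were -5.00 ± 0.30 points at the ends and 1.68 ± 0.07 in the bodies, beside -5.30 and 2.25 for the sums of the 6 genes. Protein-coding genes as a whole thus showed the same order of ends and bodies.

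The 5′ ends alone gave 0 of 88 calls on 7 reads at 12 h, which allows up to 3.41%, where 5.58 calls (6.35%) were expected. They had 1 of 11 calls at 6 h (9.09%, 1.62 to 37.7%) and 1 of 5 at 0 h, and both ends together 1 of 16 at 6 h (6.25%, 1.11 to 28.3%). These levels were above those of the ends at 12 h, on few calls and with overlapping intervals. Of the 88 calls at 12 h, Dnmt3b contributed 48 on 3 reads, Uhrf2 26 on 2 reads, Uhrf1 13 on 1 read and Dnmt3a 1 call. The read with the most CpGs, 24, came from 12 h A and covered Dnmt3b from 153649577 to 153649700, just after the printed window, and every call on it was deaminated. A read of 12 h B with 20 CpGs, from 153649416 to 153649530, ran through the end of that window and was also deaminated throughout. In Uhrf1, the 13 CpGs of a 12 h A read from 56303941 to 56304071 ended inside its printed window, with 0 undeaminated. Before Uhrf2, 11 CpGs from 30029922 to 30030052 in 12 h A, and after its start 15 CpGs from 30030806 to 30030921 in 12 h B, were deaminated as well. Since so few reads carry these calls, each count of a gene end stands for 1 to 3 DNA molecules. The 2 undeaminated calls at ends both lay at the 3′ end of Dnmt3l, which had 2 of 5.

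Counted around every annotated start site rather than the ends of the span, a choice made after seeing the data, 1 of 84 calls that lay within 1 kb and inside the span was undeaminated at 12 h (1.19%, 0.21 to 6.44%; 8 reads; expected 7.97%). This call was 1 of 2 on a Dnmt3l read of 12 h A, from 78050524 to 78050581, near the second of its starts, where a 12 h C read had 0 of 2. Just outside the window of Dnmt3a, a read of 12 h B from 3808169 to 3808297 had 1 of 13. The rest of the spans gave 74 of 273 (27.1%, 22.2 to 32.7%; expected 24.0%). Calls before the span, such as the deaminated ones upstream of Dnmt3b and Uhrf2, are not in these counts. Protein-coding genes had 7.53 ± 1.12% and 26.5 ± 2.47% in these parts. Their deviations were -6.73 ± 0.52 points near starts and 1.68 ± 0.09 in the rest, beside -6.78 and 3.14 for the sums of the 6 genes. Inside the span, the start-site windows gave 3 of 35 calls at 6 h (8.57%) and 0 of 8 at 0 h. Of the 3 undeaminated calls at 6 h, 2 were on 1 Dnmt3a read of 6 h B with 14 CpGs, from 3806270 to 3806388. A second read of 6 h B over part of that stretch, from 3806349 to 3806448, had 0 of 10. The untreated cells had 1 undeaminated call near a member, among the 5 of a 0 h A read upstream of Dnmt3b, from 153648995 to 153649065, outside the gene and so not in that count.

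**Figure D4:**
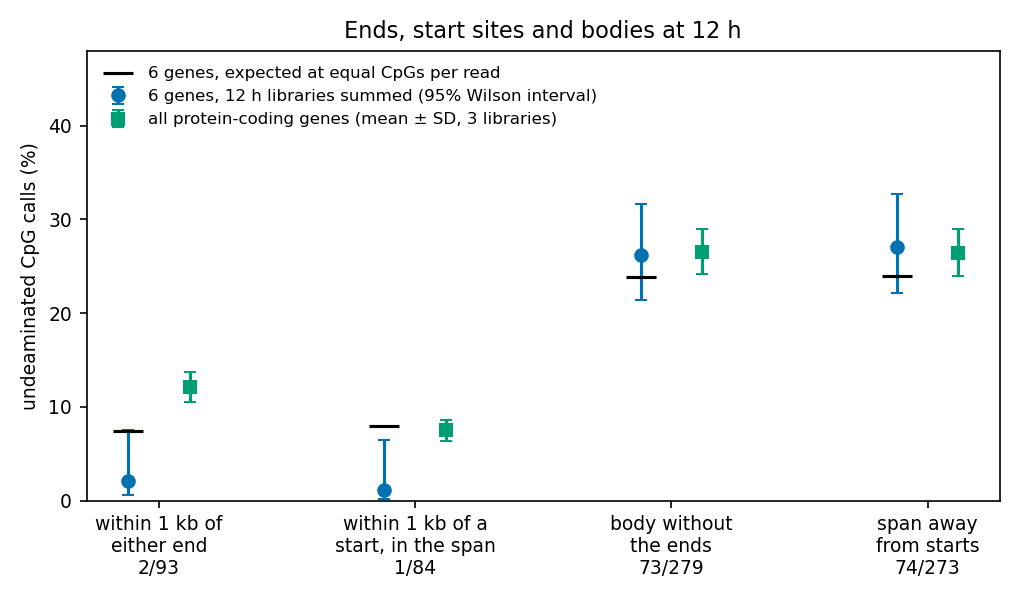
Percentage of undeaminated CpG calls at 12 h (y axis) in 4 parts of the genes (x axis): sums of the 6 genes with 95% Wilson intervals, black bars for the level expected at equal CpGs per read, and all protein-coding genes as mean ± SD of 3 libraries. The 6 genes stand at 2.15% near ends and 1.19% near start sites inside the span and at 26.2% in bodies, and protein-coding genes are also lower near ends and starts than in bodies.

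Without the ends, the bodies of the members at 12 h lay closer together. Dnmt3b, at 10.7% over its span, had 9 of 40 in its body (22.5%; expected 24.9%), and Uhrf2, at 12.9% over its span, had 4 of 16 (25%; expected 24.9%). The body of Uhrf1 had 4 of 23 (17.4%; expected 25.6%), that of Dnmt3l 9 of 33 (27.3%; expected 24.6%) and that of Dnmt3a 30 of 93 (32.3%; expected 22.5%). All 74 calls of Dnmt1 lay in its body.

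The members carried more of their 12 h calls on dense reads than the libraries did, 23.8% against 6.96% on reads with 11 or more CpGs. Single-CpG reads held 9.80% of their calls, against 21.1% in the libraries. On reads with 11 or more CpGs the members gave 1 of 85 calls on 5 reads (1.18%, the call just outside the Dnmt3a window), where the library levels were 6.11 ± 1.45% (SD, n = 3). With 6 to 7 CpGs they gave 5 of 38 (13.2%; libraries 24.4 ± 2.52%), and with 8 to 10 CpGs 1 of 8 (libraries 17.9 ± 2.19%). The sparser reads were at or above their library levels: 13 of 35 with 1 CpG (37.1%; 25 ± 2.50%), 18 of 66 with 2 (27.3%; 26.0 ± 2.43%), 18 of 57 with 3 (31.6%; 26.8 ± 2.50%) and 19 of 68 with 4 to 5 (27.9%; 26.3 ± 2.18%). Of these classes, single-CpG reads differed most from the library mean in the upward direction, on 35 reads.

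Single reads show how undeaminated calls were arranged on a molecule. At 12 h, 54 of 115 reads within the genes had at least 1 undeaminated call. Of the 80 reads with 2 or more CpGs, 39 had none, 37 were mixed and 4 were undeaminated throughout. At 6 h, 8 of 49 reads had at least 1, and of 37 reads with 2 or more CpGs 31 had none, 6 were mixed and 0 were undeaminated throughout. None of the 36 reads at 0 h had an undeaminated call.

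**Figure D5:**
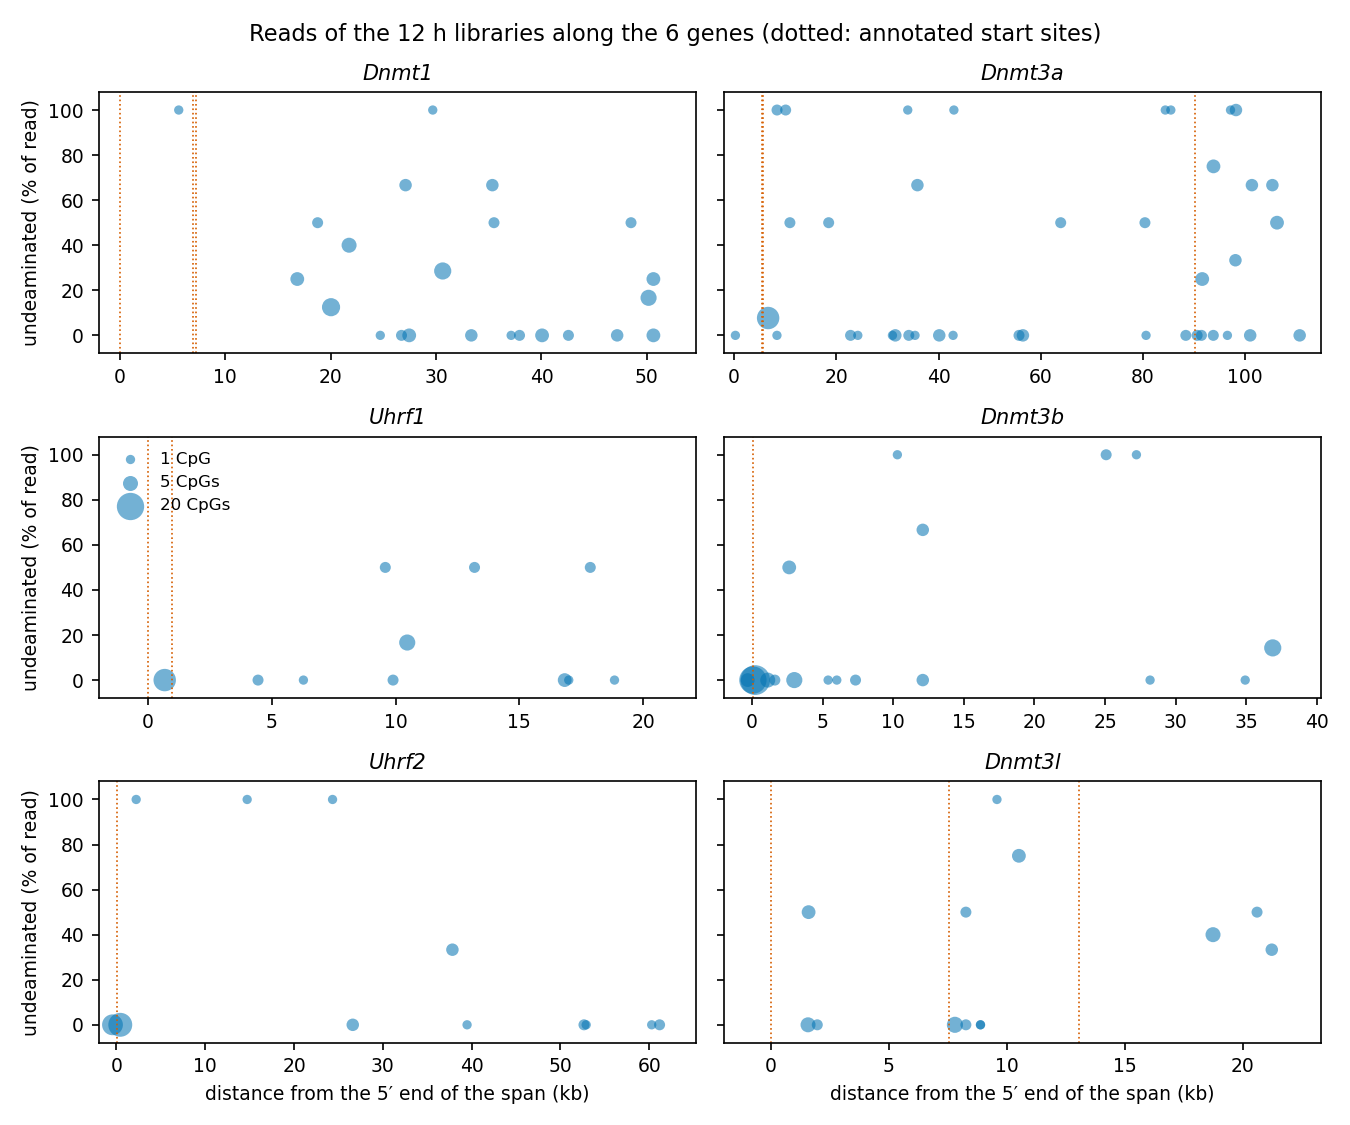
Each circle is a read of a 12 h library, placed by its distance from the 5′ end of the gene span in kb (x axis) and by the percentage of its CpG calls that are undeaminated (y axis), with the circle's size for its number of CpGs and dotted lines at annotated start sites. The large circles beside the 5′ ends of Dnmt3b, Uhrf1 and Uhrf2 lie at 0, while reads with undeaminated calls are spread through the bodies.

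Repeat reads of the same cytosine were rare: of 560 called positions within the genes, 20 were covered in more than 1 library. In Dnmt3a, the positions 3902823, 3902876 and 3902898 were all deaminated in 0 h A, and the last 2 were undeaminated in 12 h A. In Dnmt3b, position 153663176 was deaminated in 0 h A and undeaminated in 6 h B. Libraries of the same time also differed at shared positions, with 153661476 and 153661497 deaminated in 12 h B and undeaminated in 12 h C. In Dnmt3l, 78043844 and 78043858 were deaminated in 12 h A and undeaminated in 12 h B. Across 5 positions of Dnmt3b from 153652377 to 153652402, 6 h B and 12 h A were both deaminated throughout.

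The read names gave 3 sequencing runs. At 12 h the members had 8 of 61 undeaminated calls in run 1 (13.1%), 35 of 146 in run 2 (24.0%) and 32 of 150 in run 3 (21.3%). The 0 h counts were 0 of 1, 0 of 43 and 0 of 31, and those at 6 h 1 of 17 (5.88%), 3 of 79 (3.80%) and 5 of 59 (8.47%). The 12 h level was above the 6 h level in each run. With the expected level taken from the same run, deviations at 12 h were -0.376, 3.90 and -1.63 points in runs 1, 2 and 3, so their direction differed between runs.

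Other genes of methylation and its removal were taken from a list of 43 in 4 roles, of which 41 had calls at 12 h and 4 entered the fit. Of these 4, 3 rose from 0 h to 12 h and 0 fell, with a median gain of 26.3 points beside 23.7 over all genes and 86.1% of all genes called. The gains were 27.4 ± 5.05 points for Ehmt1, a histone H3 lysine methyltransferase (adjusted p = 0.00173), 28.4 ± 6.22 for Usp7, a deubiquitinase that binds UHRF1 and DNMT1 (0.00501), and 25.1 ± 6.76 for Tet3 (0.00948). Tet1 had 21.0 ± 13.2 points (0.160). Reads of Tet3 may include those of the transposon, which carries part of its sequence. None of the 4 was called from 6 h to 12 h, where 53.1% of all genes were called higher. None was called from 0 h to 6 h (0.107% of all genes) or for the deviation from 0 h to 12 h (0.107% higher and 0.241% lower).

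By role, the 12 h sums were 73 of 306 calls (23.9%, expected 22.0%) for genes of oxidation and base excision, which turn 5-methylcytosine back into cytosine, and 45 of 155 (29.0%, expected 23.8%) for readers, which bind methylated DNA. Partners, chromatin proteins that work with the methyltransferases, had 98 of 420 (23.3%, expected 21.2%), and genes of the methyl donor cycle 49 of 235 (20.9%, expected 22.7%). The best covered genes of each role were Tet3 with 33 of 125, Tet1 with 22 of 70 and Tet2 with 10 of 32, then the readers Zbtb38 with 23 of 56, Mbd2 with 14 of 38 and Zbtb4 with 3 of 16. Among partners these were Ehmt1 with 22 of 79, Nsd1 with 19 of 58 and Usp7 with 16 of 56, and in the donor cycle Mtr with 9 of 40 and Shmt2 with 6 of 37. All 43 genes together gave 2.45% at 0 h (10 of 408 calls), 7.03% at 6 h (23 of 327) and 23.7% at 12 h (265 of 1116, expected 22.1%). The 6 members stood at 0%, 5.81% and 21.0% at these times, which is a description of 2 lists chosen with earlier results known.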

How the data were processed

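The deposited files hold 1 CpG call letter per cytosine and read, undeaminated or deaminated, with read name, chromosome and position, written by the Bismark methylation extractor 0.22.3 per the file headers. Trim Galore, Bismark and GRCm38 are named in the submitters' processing notes. How reads were aligned and whether duplicates were removed is not given in the sources used here. Groups and replicate letters came from the sample titles.

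Calls were assigned to gene spans of a GRCm38.p6 table by position. Of 43905 called positions within RefSeq promoter windows, 99.9% lay at a CpG. Exons and introns were not analysed here. Genes were fitted if they had at least 10 calls at each time and calls in at least 2 libraries of each time. The fits used limma 3.58.1 (R 4.3.3) on the percentage per library and on the deviation, over all 8 libraries. Weights were calls divided by the binomial variance at the library level, so a call at 0 h weighed more than one at 12 h. Benjamini-Hochberg adjustment was over 3732 genes, with a threshold of 0.05. Every adjusted p is from these fits, unless another setting is named, which changes the libraries, model or number of genes. Genes of a library share its rise, so SE and p of gains may be too small. The fit was tested on simulated data.

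The members and the gene list were chosen with earlier results of these data known. All 6 members are named, and of each role of the list the 3 genes with the most calls and any gene called for the deviation. A gene that this rule takes is not reported here. Settings tried were other minimums of calls, a replicate block, no weights, a quasi-binomial fit, 1 call per read, identical reads counted once, other expectations, other end widths, single runs, and leaving out each library or member.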

Additional observations from a re-analysis of the deposited data

How the results depend on the processing

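The members' summed deviation at 12 h of 0.809 points became -2.22 against the raw library level, 6.22 with 1 call per read, 3.90 in run 2, -1.63 in run 3 and -2.27 without Dnmt3a; leaving out single libraries gave -1.13 to 2.72. Its direction is thus not settled at this depth. The difference between the deviations of the summed ends and bodies was -7.56 points (SD over the 12 h libraries 17.8). It stayed below 0 in the settings run for it, from -23.5 against the raw level to -4.97 without 12 h B. These were other end widths, start-site windows, the raw level and leaving out each 12 h library. Single runs, 1 call per read and leaving out a member were not run for it. As means over the 12 h libraries, the deviations had the other order, 3.22 points at ends and 1.62 in bodies.

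Deviations of genes correlated at -0.0261 to 0.00988 between libraries of the same letter and at -0.0210 to 0.0261 between different letters. Each value was taken from the mean of its time, which makes the 2 libraries of 6 h exact opposites. Many genes had few calls per library. These correlations therefore cannot tell whether the letters pair the libraries. With the replicate block, Dnmt1 gained 21.3 and Dnmt3a 39.1 points from 0 h to 12 h, both still called, and Dnmt3a deviated by 16.1 points (adjusted p = 0.673). The deviation of Dnmt1 (-0.337) became 0.761 without weights, 0.694 against the raw level and 6.21 without 12 h A, with -5.25 as the lowest value.

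Of 3732 genes, 3212 gained from 0 h to 12 h, and 1737 of 1880 with at least 20 calls, 1008 of 3732 in the quasi-binomial fit, 1521 of 1707 with 1 call per read and 861 (of 966, without 6 h B) to 3248 (of 3903, without 6 h A) with 1 library left out, with 2103 of 2364 without 0 h A. From 6 h to 12 h 1983 gained, and 1286, 0, 956 and 345 (without 6 h B) to 1925 in the same settings. From 0 h to 6 h 4 were called, 0 with the block, without weights or in the quasi-binomial fit, 2 with 1 call per read and 0 (without 0 h A or 0 h C) to 155 (without 6 h A) with 1 library left out, a count that moved by over 1.5 times with each library. The deviation called 13 genes, 4 with the block, 0 without weights, 0 in the quasi-binomial fit (40 at an unadjusted p under 0.05), 7 with 1 call per read, 8 with identical reads counted once, 20 against the raw level and 5 (without 0 h B) to 30 (without 12 h A) with 1 library left out. In the quasi-binomial fit the adjusted p of the gain from 0 h to 12 h was 0.0869 for Dnmt1 (difference of the sums 23.0 points) and 0.0657 for Dnmt3a (31.9 points), so neither was called there. The lower counts of 12 h gains with at least 20 calls, with 1 call per read and without 6 h B or 0 h A come with fewer genes tested; the cause of the other shifts was not tested.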
